A study of Mus musculus with 17 samples.

Results

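Vip, Grp, Prok2 and Nms are 4 neuropeptide genes of the suprachiasmatic nucleus, and their rows were followed across the 46 named cell clusters of a mouse hypothalamus single-cell study. They are 4 of the 23284 genes in the merged count table. The members were the rows with these symbols. Hypothalamus was taken from B6D2F1 mice, the offspring of C57BL6 females and DBA2 males, in a normal group of 5 mice and a food-deprived group of 3 mice that had no food for 24 hours. The labels name no other allele, transgene or agent for either group, and give no age. The cells were read by Drop-seq, in which each cell's polyadenylated RNA is captured on a barcoded bead and each molecule is counted once by its unique molecular identifier (UMI). The 17 libraries fall in 5 labelled batches. Batch 1 holds normal replicate 3 and food-deprived replicate 1, batch 2 holds normal replicate 4 and food-deprived replicate 2, and every other batch holds mice of 1 feeding state.

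The suprachiasmatic nucleus sits above the optic chiasm and is the main circadian pacemaker of mammals. Its neurons are GABAergic. In its ventral core, cells that make vasoactive intestinal peptide (Vip) or gastrin-releasing peptide (Grp) lie near the input from the retina, whereas its dorsal shell is rich in vasopressin (Avp) cells. Vip acts through the receptor encoded by Vipr2 and keeps the clocks of the nucleus in step. Prokineticin 2 (Prok2) acts through Prokr2 and carries time-of-day output from the nucleus. Neuromedin S (Nms) is made by a broad set of cells of the nucleus, and Grp acts through Grpr.

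After each annotated cell was matched to its own library, 14276 cells were used and 161 were left out. Of the cells used, 2297 were in 34 neuronal clusters, and 2309 were in the cluster that the authors named zothers. The median number of UMIs per cell ranged from 1444 to 2389 between mice. Total UMIs ranged from 366371 to 5997610 between libraries. In 9 libraries Gapdh was at 4.25 to 8.20 UMIs per 1000000 (CPM), and in the other 8 it was at 146 to 807 CPM, so the libraries are of 2 kinds. The first kind holds all cells of normal replicate 3, 91.2% of those of food-deprived replicate 1, 51.5% of those of normal replicate 4 and 70.5% of those of food-deprived replicate 2. It holds none from the other 4 mice. Normal replicates 1 and 2 gave 19 and 41 neurons, against 197 to 499 in each other mouse. Across the libraries, 120 cell barcodes occurred in more than 1 library. Levels are CPM of a cluster's summed UMIs. UMIs are counted from transcript ends and were not divided by length. The 4 members are not compared with each other in level. Other listed genes are ranked by level only to choose which to name.

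In all, 3507 UMIs of Vip, 602 of Grp, 414 of Prok2 and 903 of Nms were counted. Neuronal clusters held 86.6% of the UMIs of Vip, 84.8% of those of Prok2 and 86.4% of those of Nms, but 44.2% of those of Grp. The cluster zothers held 46.5% of the Grp UMIs. Each gene was at 0 in most neuronal clusters: Vip in 24 of 34, Nms in 22, Grp in 20 and Prok2 in 18. The clusters were made by the authors from these same cells, so the levels by cluster are descriptions and carry no test.

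**Figure D1:**
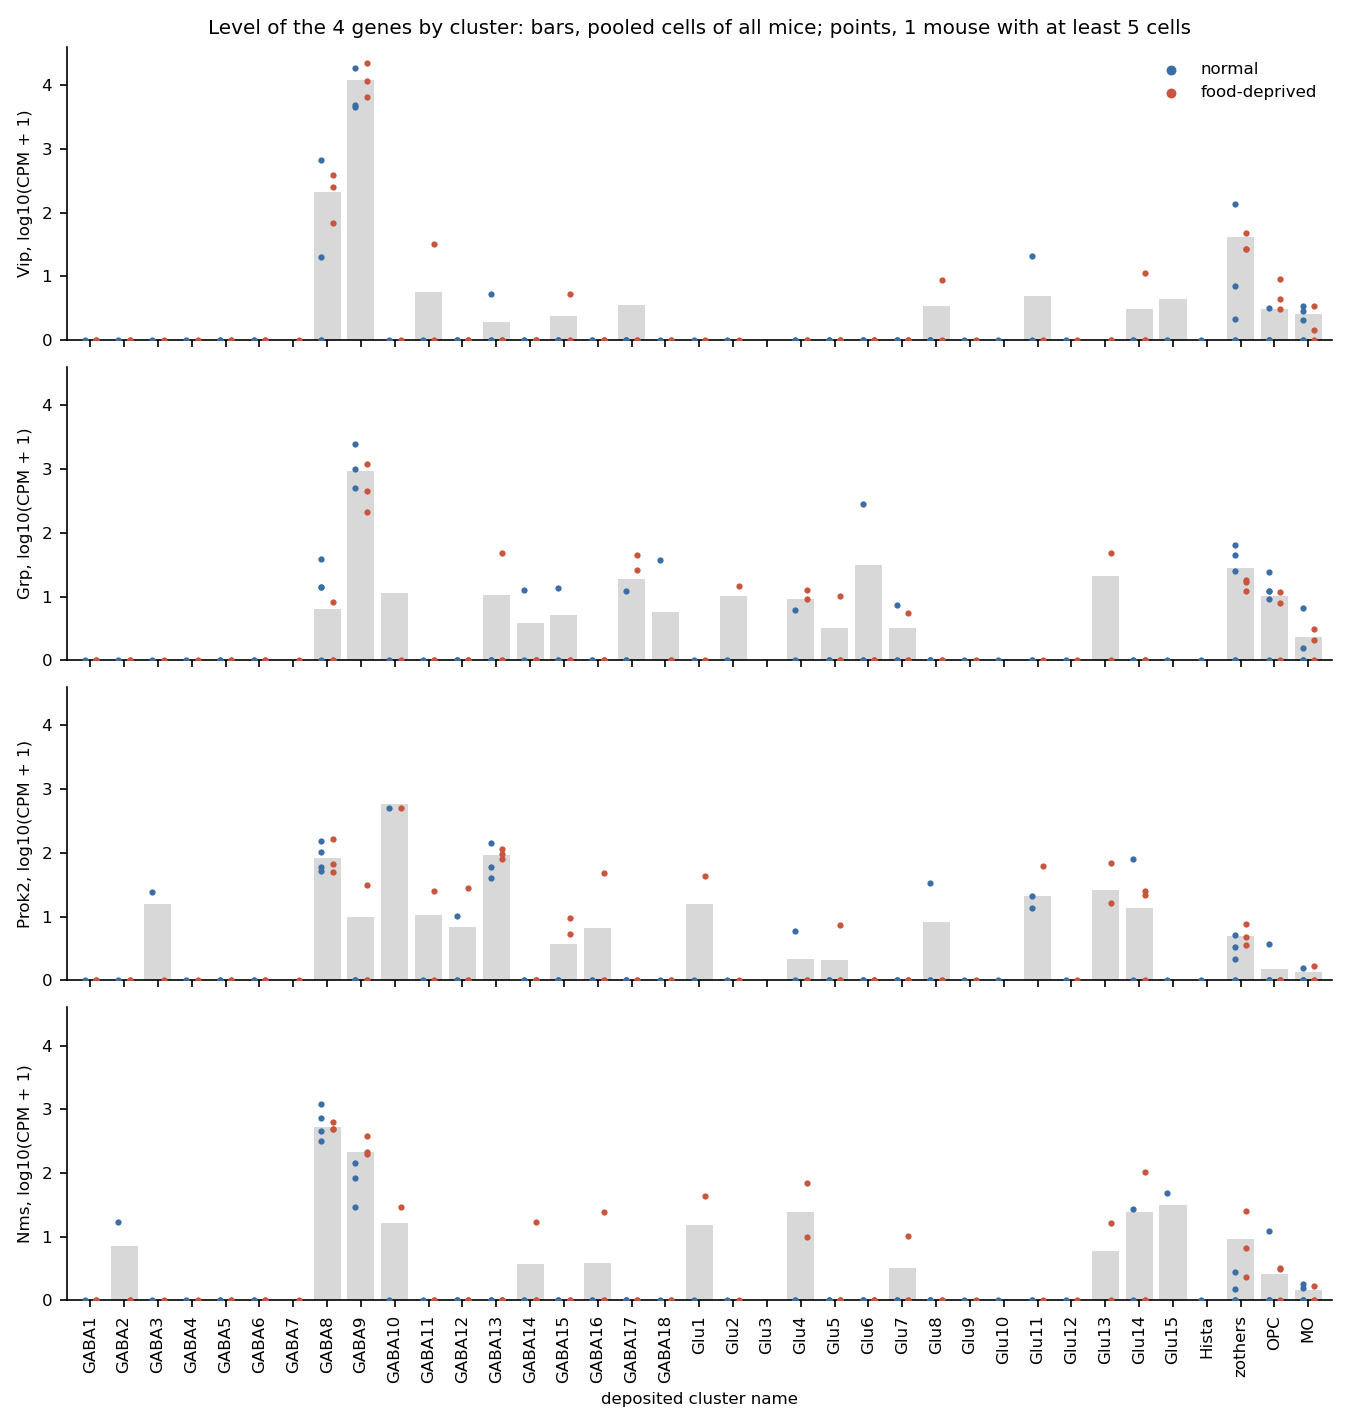
Level of each gene on a log10(CPM + 1) axis in the 34 neuronal clusters, zothers, the oligodendrocyte precursor cluster OPC and the myelinating oligodendrocyte cluster MO. Grey bars are the pooled cells of all mice and points are single mice with at least 5 cells of the cluster (blue, normal; red, food-deprived). Vip and Grp are highest in GABA9, Nms in GABA8 and then GABA9, and Prok2 in GABA10, then in GABA13 and GABA8.

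The promoters of Vip, Prok2 and Nms are shown as the sequence context of genes found in the same cells; Grp is not shown. Each is the stretch of 250 bases before the RefSeq start site, on the gene's own strand, in the build GRCm38.p6: Vip at chr10:5638968-5639217 (plus strand), Prok2 at chr6:99726393-99726642 (minus strand) and Nms at chr1:38938899-38939148 (plus strand). Capitals mark 4 motifs searched on both strands: the E-box CACGTG, the cyclic AMP response element TGACGTCA, its 5-base core TGACG, which is part of the full element, and the TATA motif TATAAA.
Vip: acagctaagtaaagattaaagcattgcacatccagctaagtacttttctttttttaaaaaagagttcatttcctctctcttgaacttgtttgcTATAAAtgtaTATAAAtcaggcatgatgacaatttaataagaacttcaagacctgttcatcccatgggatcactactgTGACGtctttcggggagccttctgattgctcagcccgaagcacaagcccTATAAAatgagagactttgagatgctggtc
Prok2: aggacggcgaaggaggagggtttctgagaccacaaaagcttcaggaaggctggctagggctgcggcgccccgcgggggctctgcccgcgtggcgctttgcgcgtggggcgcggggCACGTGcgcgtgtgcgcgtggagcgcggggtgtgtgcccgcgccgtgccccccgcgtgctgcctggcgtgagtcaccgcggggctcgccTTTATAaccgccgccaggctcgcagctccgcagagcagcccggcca
Nms: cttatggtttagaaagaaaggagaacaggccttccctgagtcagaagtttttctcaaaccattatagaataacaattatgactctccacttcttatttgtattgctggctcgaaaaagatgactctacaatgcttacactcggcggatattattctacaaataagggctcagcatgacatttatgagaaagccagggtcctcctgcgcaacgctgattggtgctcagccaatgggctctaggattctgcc
The Vip sequence holds TGACG starting 79 bases before the start site, and TATAAA starting 157, 147 and 30 bases before it. The Prok2 sequence holds CACGTG starting 135 bases before the start site, and TATAAA on the opposite strand 46 bases before it. The Nms sequence holds none of the 4, and the full TGACGTCA is in none of the 3. Among 32851 RefSeq promoters of the same length, 6.02% hold CACGTG, 17.8% hold TGACG, 1.55% hold TGACGTCA and 12.4% hold TATAAA. A match is a description of the letters and not of factor binding.

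Vip was concentrated in 1 small cluster. GABA9, with 68 cells from 6 mice, held 78.8% of all Vip UMIs. In its 6 mice the level was 4918, 4563 and 18626 CPM in normal replicates 3, 4 and 5 and 22197, 11823 and 6439 CPM in food-deprived replicates 1, 2 and 3. The mean was 11428 ± 7514 CPM (SD, n = 6). The lowest of the 6 mice was at 4563 CPM, and the levels spread widely within each feeding group. A Vip UMI was found in 50 of the 68 cells (73.5%). These cells had a median of 30.5 Vip UMIs, and 1 cell had 320. Among 3501 myelinating oligodendrocytes, which should lack Vip, 14 cells (0.400%) had a Vip UMI, never more than 1. The median depth was 2195 UMIs in those cells and 2954 in GABA9.

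GABA8, a cluster of 402 cells in which vasopressin was at 12905 CPM over the pooled cells, was the other neuronal cluster with more than 3 Vip UMIs. It held 268 Vip UMIs in 18 cells. Its level was 0 CPM in normal replicates 2 and 3, 19.3 in normal replicate 4 and 681 in normal replicate 5, and 255, 67.0 and 384 CPM in food-deprived replicates 1, 2 and 3. Those 18 cells had a median of 9.5 Vip UMIs, and 2 of them had just 1. The other 32 neuronal clusters, with 1827 cells, held 8 Vip UMIs in 8 cells (0.438%), a share close to that of the oligodendrocytes.

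Grp was highest in the same cluster as Vip. In GABA9 it stood at 2459, 996 and 503 CPM in normal replicates 3, 4 and 5 and at 214, 454 and 1220 CPM in food-deprived replicates 1, 2 and 3. The mean was 974 ± 817 CPM (SD, n = 6), and 24 of 68 cells (35.3%) had a UMI, with a median of 6 in those cells. Outside GABA9, no neuronal cluster reached 50 CPM. The next pooled level was in the glutamatergic cluster Glu6, at 29.7 CPM, where all 9 UMIs came from 3 cells of normal replicate 5 and the other 5 mice with at least 5 cells of the cluster were at 0.

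Much of the Grp signal was in cells without a named type. In zothers, 81 of 2309 cells (3.51%) from 6 mice held 280 Grp UMIs, and 7 of them had 10 or more. The level there was 24.2, 44.0 and 63.8 CPM in normal replicates 3, 4 and 5, 17.1, 15.8 and 11.2 CPM in food-deprived replicates 1, 2 and 3, and 0 in normal replicates 1 and 2, which gave 11 and 9 zothers cells. In these Grp cells the GABAergic marker Gad2 was at 683 CPM and Slc17a6, the vesicular glutamate transporter of hypothalamic glutamatergic neurons, was at 348 CPM. Slc17a6 was at 0 in GABA9. Six6, a transcription factor of the suprachiasmatic lineage, was at 9.72 CPM in the zothers cells with Grp and at 230 CPM in GABA9. Oligodendrocyte precursors also held Grp: 31 of 1707 cells (1.82%) from 6 mice had a UMI, 27 of them just 1. That share was above the 7 of 3501 (0.200%) in myelinating oligodendrocytes, at median depths of 2020 and 2195 UMIs.

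The Vip UMIs of zothers had another make-up. Of 419 UMIs in 34 cells, 1 cell held 31.7% and 3 cells held 59.4%. Nms in zothers was in 19 cells, and 1 cell held 66 of the 85 UMIs. That cell had Prok2 as well, and no other zothers cell had both.

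Nms was highest in GABA8, the vasopressin-rich cluster, which held 75.5% of its UMIs. In the 7 mice with at least 5 cells there, normal replicates 2 to 5 were at 1202, 456, 733 and 318 CPM and food-deprived replicates 1 to 3 were at 624, 498 and 482 CPM. The mean was 616 ± 290 CPM (SD, n = 7), and no mouse was near 0. A UMI was found in 177 of 402 cells (44.0%), against 4 of 3501 oligodendrocytes (0.114%). GABA9 came next, with 20 of 68 cells (29.4%) and a mean of 175 ± 123 CPM (SD, n = 6). The mouse values in GABA8 and GABA9 overlap by little: the lowest of GABA8 was 318 CPM and the highest of GABA9 was 382 CPM. All neurons outside these 2 clusters held 50 Nms UMIs in 15 of 1827 cells (0.821%).

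Prok2 was spread over 3 GABAergic clusters. GABA10, with 23 cells, had the highest level: 501 CPM in normal replicate 3 and 508 CPM in food-deprived replicate 1, the 2 mice with at least 5 of its cells. Of the 23 cells, 19 (82.6%) from 5 mice had a Prok2 UMI. In GABA13, with 164 cells, the level was 38.7, 142 and 59.8 CPM in normal replicates 3, 4 and 5 and 80.1, 93.5 and 114 CPM in food-deprived replicates 1, 2 and 3, and 35 cells (21.3%) had a UMI. In GABA8 the mean was 91.3 ± 48.1 CPM (SD, n = 7), and 53 cells (13.2%) had a UMI, 31 of them just 1. GABA13 and GABA8 did not differ beyond the spread between mice, and GABA10 stood above both in each of its mice. In oligodendrocytes 3 of 3501 cells (0.0857%) had a Prok2 UMI.

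Listed genes of the suprachiasmatic nucleus differed in level between GABA9 and GABA8 and the other Prok2 clusters, GABA10 and GABA13. Six6 was at 230 CPM in GABA9 and 193 CPM in GABA8 against 24.1 CPM in the neurons outside both, and it was at 0 in GABA10 and 0.949 CPM in GABA13. Six3, a related factor, was at 565 and 397 CPM in GABA9 and GABA8 at 0 in GABA10 and at 13.3 CPM in GABA13. Lhx1, a transcription factor needed for coupling among suprachiasmatic cells, was at 764 CPM in GABA9, 96.6 CPM in GABA8 and 0 in GABA10 and GABA13. Rgs16, a regulator of G protein signalling with a daily rhythm in the shell, was at 649 and 764 CPM in GABA9 and GABA8 against 54.1 CPM in the other neurons, and at 77.4 CPM in GABA10 and 129 CPM in GABA13. Rorb, a nuclear receptor, was above the 45.3 CPM of the other neurons in all 4 clusters. It was at 163 CPM in GABA9, 382 in GABA8, 196 in GABA10 and 169 in GABA13. Here and below the other neurons are all those outside GABA8 and GABA9, so they include GABA10 and GABA13 themselves. The 3 highest of the listed suprachiasmatic genes in GABA9 were Pcsk1n, a gene of secretory granules, at 2876 CPM against 3039 CPM in the other neurons, Lhx1, and Syt10 at 742 CPM against 39.5 CPM. Syt10 was at 82.6 CPM in GABA10 and 54.1 CPM in GABA13. Of 25 listed suprachiasmatic genes other than the 4 members, 15 were higher in GABA8 than in the neurons outside GABA8 and GABA9, and 13 were higher in GABA9. In GABA10 and GABA13, 10 and 8 of the 25 were higher, led by Gal, the gene of the peptide galanin, at 3984 and 6638 CPM. Of all 9807 genes with at least 100 UMIs in neurons, 43.2% were higher in GABA8, 42.2% in GABA9, 46.9% in GABA10 and 43.2% in GABA13. The clusters come from these cells and several of these genes were known to mark the nucleus, so the counts describe the clusters and test nothing.

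Levels of the GABAergic and glutamatergic markers matched the labels. The GABAergic markers Gad1, Gad2 and Slc32a1 summed to 1794 CPM in GABA9 and 2004 CPM in GABA8. Both glutamatergic markers, Slc17a6 and Slc17a7, were at 0 in GABA9 and summed to 12.5 CPM in GABA8. The 5 markers of neurons in general summed to 3189 CPM in GABA9 and 2799 CPM in GABA8, against 4176 CPM in the neurons outside both. Of these 5, 1 was above the other neurons in GABA9 and 0 in GABA8. All 9 markers of neurons from outside the hypothalamus, and all 3 of microglia, were at 0 in GABA9. In GABA8 all 3 microglial and all 3 ependymal markers were above the other neurons, summing to 17.1 against 3.65 CPM and 28.8 against 7.93 CPM. In GABA9 the blood markers summed to 57.4 CPM against 16.9 CPM, all of it Beta-s, with Hba-a1 and Hba-a2 at 0. Markers of myelinating oligodendrocytes summed to 508 CPM in GABA9 and 638 CPM in GABA8, against 585 CPM in the neurons outside both. Of these 5 markers, 4 were above the other neurons in GABA9 and 3 in GABA8. The part of these non-neuronal cells in the cluster levels was not tested.

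Of the receptors for the 4 peptides, Vipr2 and Prokr2 were higher in GABA8 than in GABA9. Vipr2 was at 334 ± 147 CPM (SD, n = 7) in GABA8 and 53.3 ± 36.5 CPM (SD, n = 6) in GABA9, and at 3.55 CPM over the neurons outside both. Prokr2 was at 149 ± 48.5 CPM (SD, n = 7) in GABA8 and 5.88 ± 9.23 CPM (SD, n = 6) in GABA9. Every GABA8 mouse was above every GABA9 mouse for both receptors: the lowest Vipr2 in GABA8 was 156 CPM and the highest in GABA9 was 91.6 CPM. Grpr was low in both, at 25.7 and 22.1 CPM in the pooled cells of GABA8 and GABA9, and at 2.73 CPM in the other neurons. Vipr1, Prokr1, Nmur1 and Nmur2, the second receptors for these peptides and those for neuromedins, were at 0 in both clusters. GABA10 held neither Vipr2 nor Prokr2.

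**Figure D2:**
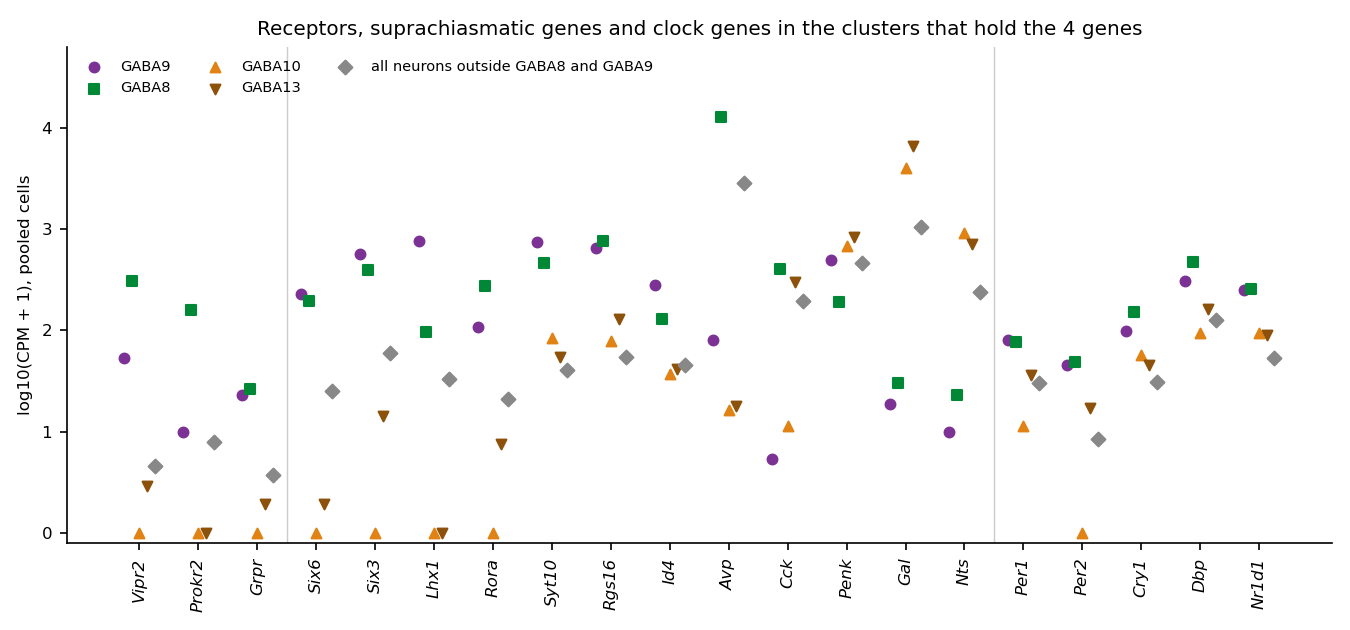
Receptors, other suprachiasmatic genes and clock genes in the pooled cells of GABA9, GABA8, GABA10, GABA13 and all neurons outside GABA8 and GABA9, on a log10(CPM + 1) axis. Vertical lines part the 3 groups of genes. Vipr2, Six6, Six3, Lhx1 and Rora are high in GABA9 and GABA8 and low or at 0 in GABA10 and GABA13, where Gal is high.

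Of 18 genes of the circadian clock in the table, 16 were higher in GABA8, 17 in GABA9, 9 in GABA10 and 13 in GABA13 than in the neurons outside GABA8 and GABA9, beside the shares of all genes given above. The 3 highest of them in GABA9 were Dbp, an output factor of the clock, at 309 CPM, Nr1d1, its repressor REV-ERB alpha, at 247 CPM, and Hlf, a factor related to Dbp, at 234 CPM. Per2, a core clock gene, was at 57.8 ± 30.4 CPM (SD, n = 7) in GABA8 against 9.82 ± 10.5 CPM (SD, n = 8) in the other neurons. In GABA9, 9 of its 10 UMIs came from food-deprived replicate 1, and the pooled level was 44.2 CPM with that mouse and 6.22 CPM without it. The time of day at which the mice were taken is not given in the sources used here, so the phase of these genes cannot be placed.

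Across the 21 neuronal clusters with at least 30 cells, the genes whose pooled level, as log2(CPM + 10), was most like that of each member were named. Genes had to reach 50 CPM in at least 1 cluster, and likeness was Pearson's r over clusters, which share libraries and depth. For Vip they were Cebpa (r = 0.96), Sod3 (0.95), Ctla2a (0.90), Grp (0.86) and Cdc14a (0.85). For Grp they were Dsg2 (0.92), Vip (0.86), Sod3 (0.83), Cebpa (0.78) and Trpm3 (0.75). For Nms they were Vipr2 (0.92), Ctla2a (0.86), Cdc14a (0.86), Prkd1 (0.85) and Rora (0.84). For Prok2 no gene passed r = 0.71, which Ccar1 had, and GABA10 had too few cells to enter. Cebpa, Sod3, Dsg2 and Trpm3 were highest in GABA9, where Vip and Grp are highest, at 57.4, 53.0, 53.0 and 61.8 CPM. Cdc14a and Prkd1 were highest in GABA8, where Nms is highest, at 63.9 and 56.9 CPM. These levels are just above the limit of 50 CPM. The limit and a single cluster therefore largely set such r values, which test nothing.

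Single cells showed how the peptides combine, and no call of doublets, which are droplets with more than 1 cell, was made. Within GABA9, no cell had UMIs of both Grp and Nms. Vip was in 50 cells, Grp in 24 and Nms in 20. Of the 24 Grp cells, 16 also had Vip (66.7%, exact 95% binomial interval 44.7 to 84.4%). Of the 20 Nms cells, 19 also had Vip (95%, interval 75.1 to 99.9%). For Grp with Nms the product of their shares gives 7.06 cells, and a count of 0 allows up to 12.5% of the Grp cells and 15% of the Nms cells. These limits are for cells with UMIs of both genes, not for cells expressing both: Nms had a median of 2 UMIs in its 20 cells, and 8 of them had just 1. Such intervals and limits cover counting error only, not the spread between mice.

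**Figure D3:**
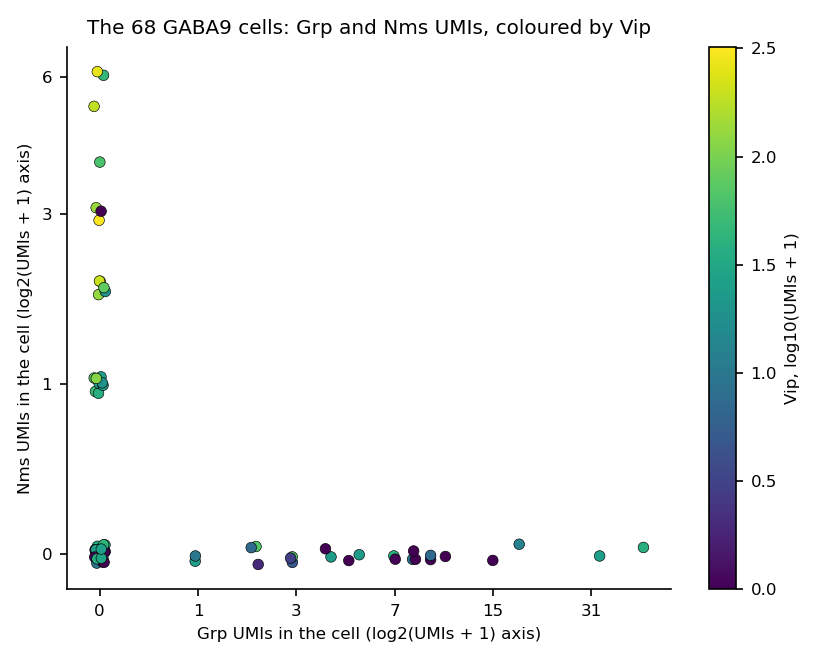
Each point is 1 of the 68 GABA9 cells, placed by its Grp UMIs and its Nms UMIs on log2(UMIs + 1) axes with a little random shift, and coloured by log10(Vip UMIs + 1). Cells lie along one axis or the other and none has both genes. The cells with Nms are nearly all bright for Vip.

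The Nms cells of GABA9 also had more Vip than the Grp cells. Pooled, Vip was at 27707 CPM in the 18 cells with Vip and Nms, 7009 CPM in the 16 with Vip and Grp, and 12762 CPM in the 15 with Vip alone. In 5 of 6 mice Vip was higher in the Nms cells than in the Grp cells of the same mouse, with medians of 22330 and 2202 CPM. The receptor Vipr2 was at 129 CPM in the Nms cells and at 0 in the 24 Grp cells. Both values rest on few UMIs, so the 0 does not show that the Grp cells lack Vipr2. Syt10, a synaptotagmin, was at 1177 and 414 CPM and higher in the Nms cells of 5 of 6 mice. Lhx1 was at 603 CPM in the Nms cells and 780 CPM in the Grp cells, so the 2 sets were alike in that marker of the cluster. The sets hold between 1 and 9 cells per mouse, and their median depths were 3098.5 UMIs for the 20 Nms cells and 3270.5 for the 24 Grp cells.

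In GABA8, Nms and Prok2 were found together. Of the 53 Prok2 cells, 40 had Nms (75.5%, exact 95% binomial interval 61.7 to 86.2%), against 39.3% of the cells without Prok2. After thinning to 1000 UMIs the shares were 44.8% and 25.1%. In 7 of 8 mice Prok2 was higher in the cells with Nms, and in the other mouse neither set had a Prok2 UMI.

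The Nms cells of GABA8 were also set apart by Avp and Cck, the gene of cholecystokinin. Avp was at 17743 CPM in the 177 cells with Nms and 8059 CPM in the 225 without, and it was higher in the Nms cells of 8 of 8 mice. Cck went the other way, at 143 CPM with Nms and 669 CPM without, and it was lower in the Nms cells of 8 of 8 mice. One of the 8 mice, normal replicate 1, gave 3 GABA8 cells. Vipr2 did not split this way, at 355 and 259 CPM and higher in the Nms cells of 6 of 8 mice. Cells with an Nms UMI were deeper, with a median of 3183 UMIs against 2453.

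The 18 Vip cells of GABA8 differed widely in vasopressin. Over all 18, Avp was at 9966 CPM, against 8396 CPM in the 201 GABA8 cells with no member, and 385 of their 423 Avp UMIs came from food-deprived replicate 1. Without that mouse, Avp was at 1353 CPM in the other 14 cells. The 3 ependymal markers summed to 401 CPM in the 18 cells against 28.8 CPM in GABA8, none of them at 0, and their part was not tested. Nms was in 9 of these 18 cells. The 8 cells with Vip and no other member had Vip at 9731 CPM and Avp at 1196 CPM, and the 7 cells with Vip and Nms had Avp at 1429 CPM. The 129 cells with Nms alone had Avp at 17459 CPM. The 2 cells with Vip, Prok2 and Nms were the exception, with Avp at 36497 CPM and Vip at 191 CPM. In GABA10 and GABA13, Prok2 was nearly always alone: 1 of 19 Prok2 cells of GABA10 had Nms, and 1 of 35 Prok2 cells of GABA13 had Grp.

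**Figure D4:**
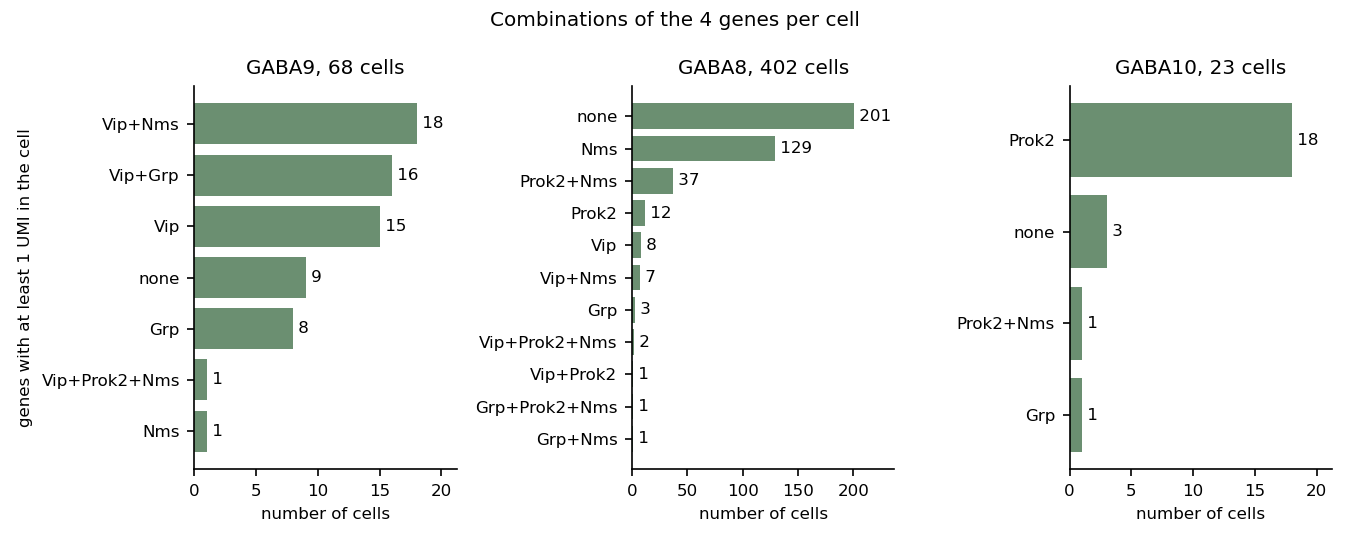
Number of cells with each combination of the 4 genes (at least 1 UMI) in GABA9, GABA8 and GABA10. Vip with Nms and Vip with Grp are the most frequent sets in GABA9, Nms alone and Prok2 with Nms follow the cells with none in GABA8, and Prok2 alone fills most of GABA10.

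The feeding comparison asked whether a day without food changed these peptides. Counts were summed per mouse and tested with edgeR's quasi-likelihood test with Benjamini-Hochberg adjustment over all genes. All 4 genes passed the filter on low counts in all neurons and in GABAergic neurons, Vip, Prok2 and Nms in GABA8, Vip and Grp in GABA9, and Prok2 in GABA13. None of them was called in those comparisons. The background was also empty, with 0 of 10923 genes called in all neurons (0%) and 232 at an unadjusted p under 0.05 (2.12%). DESeq2 called 0 on the same counts. In simulated data of that comparison 180 of 194 changed genes were recovered. Those data had a fixed spread between mice, no batches, and planted changes larger than the Vip difference in all neurons given below. The share recovered is therefore not the power of the comparison in the real mice. In counts summed over a class, fewer cells of a type and less RNA per cell cannot be told apart. Shares of neurons and levels within single clusters are given below.

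Vip had the largest difference of the 4 in all neurons. Its level was 0, 86.6, 83.1 and 191 CPM in normal replicates 2 to 5 and 513, 172 and 307 CPM in food-deprived replicates 1 to 3. The highest normal mouse was above the lowest food-deprived mouse, so the groups overlapped. The means were 90.1 ± 78.1 CPM (SD, n = 4) and 331 ± 172 CPM (SD, n = 3), and the fitted log2 difference was 1.66 ± 0.56 (SE), with an edgeR adjusted p of 1.00 and an unadjusted p of 0.0121. With batch as a term, which rests on the mice of batches 1 and 2, the difference was 1.86 ± 0.28 with an edgeR adjusted p of 0.0334, and 8 of 10923 genes (0.0732%) were called. That fit left 1 degree of freedom for the spread between mice, as did every fit with batch as a term below. Such p-values rest mainly on the spread modelled over all genes. In GABAergic neurons Vip was at 0, 159, 144 and 339 CPM in normal replicates 2 to 5, while food-deprived replicates 1 to 3 had 854, 356 and 535 CPM, with means of 161 ± 139 CPM (SD, n = 4) and 581 ± 252 CPM (SD, n = 3). The groups did not overlap in CPM, but they overlapped after the TMM scaling of the fit, where 210 of 9508 genes (2.21%) were higher in every food-deprived mouse. The log2 difference in GABAergic neurons was 1.70 ± 0.59 with an edgeR adjusted p of 1.00, where 0 of 9508 genes (0%) were called and 173 had an unadjusted p under 0.05 (1.82%). Without a filter on low counts its adjusted p by edgeR was 0.0204 there, with 5 of 16630 genes (0.0301%) called.

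The share of neurons in GABA9 was 0, 2.25, 3.05 and 1.80% in normal replicates 2 to 5 and 3.21, 2.24 and 6.19% in food-deprived replicates 1 to 3. The difference of the means was 2.11 percentage points (exact two-sided permutation test over mice, p = 0.143, adjusted p = 0.600 over 7 shares). The smallest p that 35 splits of these mice can give is 0.0286. The share of neurons with a Vip UMI was 1.84% in normal and 4.22% in food-deprived mice (exact permutation p = 0.171, adjusted p = 0.600). Shares for the other genes differed by 0.268 percentage points for Nms, 0.432 for Grp and 1.17 for Prok2, with exact permutation adjusted p-values of 0.943, 0.640 and 0.640. In batch 1 the GABA9 share was higher in the food-deprived than in the normal mouse, at 3.21 and 2.25%. In batch 2 it was lower, at 2.24 and 3.05%, from 9 and 6 GABA9 cells, while Vip in all neurons was 172 and 83.1 CPM. Vip in all neurons was higher in the food-deprived mouse of both batches. The part of the GABA9 share in the Vip difference was not tested.

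Within GABA9 no mouse of the normal group reached 10 cells, so the fit used the 6 mice with at least 5 cells, a limit chosen after the counts were seen. From the CPM of each mouse given above, Vip differed by 0.55 ± 0.53 on the log2 scale (edgeR adjusted p = 0.997), and Grp by -1.20 ± 0.54 (edgeR adjusted p = 0.997, unadjusted p = 0.0434). None of 783 genes (0%) was called, 33 had an unadjusted p under 0.05 (4.21%), and DESeq2 called 0. Both genes depended on which mice were used. Leaving out 1 mouse at a time gave 0.015 to 1.52 for Vip and -2.20 to -0.325 for Grp. Of these fits, only the one without normal replicate 5 called any gene. In that fit edgeR gave Vip 1.52 (adjusted p = 0.00296) and Grp -1.49 (adjusted p = 0.00243), with 17 of 922 genes (1.84%) called. With batch as a term, which rests on batches 1 and 2, edgeR gave Vip 1.78 (adjusted p = 0.0359) and Grp -2.46 (adjusted p = 0.0178), with 5 of 783 genes (0.639%) called. Within batch 1, Vip was 4918 CPM in the normal and 22197 CPM in the food-deprived mouse, and Grp was 2459 and 214 CPM. Within batch 2, Vip was 4563 and 11823 CPM, and Grp was 996 and 454 CPM. The mice of batches 3 and 4, normal replicate 5 and food-deprived replicate 3, went the other way for both genes, but there batch and feeding state cannot be told apart.

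Nms in GABA9 was too low for the filter of that fit. It stood at 28.3, 83.0 and 144 CPM in normal and at 382, 214 and 200 CPM in food-deprived mice. The groups did not overlap, as was so in that direction, on the scale of the fit, for 32 of the 783 genes tested (4.09%). The values rest on 1, 1 and 2 cells with a UMI in the normal mice and 7, 4 and 5 in the food-deprived mice.

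In GABA8 the other peptides stood close together. Nms was 677 ± 390 CPM (SD, n = 4) in normal and 534 ± 78.1 CPM (SD, n = 3) in food-deprived mice, a log2 difference of -0.20 ± 0.33 (edgeR adjusted p = 1.00). Prok2 was 90.5 ± 46.0 and 92.3 ± 61.4 CPM, a log2 difference of 0.28 ± 0.45 (edgeR adjusted p = 1.00). Vip there differed by 0.19 ± 0.95 (edgeR adjusted p = 1.00), with 1 normal mouse at 681 CPM and another 2 at 0. None of 4476 genes (0%) was called in GABA8, 110 had an unadjusted p under 0.05 (2.46%), and DESeq2 called 0. With batch as a term Vip differed by 4.24 there (edgeR adjusted p = 2.33e-09), with 22 of 4476 genes (0.492%) called. Normal replicate 3, of batch 1, had no Vip UMI in 54 GABA8 cells, and how far that value rests on this mouse was not tested. In GABA13 Prok2 differed by 0.11 ± 0.43 (edgeR adjusted p = 0.999), where 0 of 3996 genes (0%) were called and 148 had an unadjusted p under 0.05 (3.70%).

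Grp in all neurons was 20.8 ± 16.7 CPM (SD, n = 4) in normal and 23.2 ± 20.8 CPM (SD, n = 3) in food-deprived mice, a log2 difference of -0.19 ± 0.61 (edgeR adjusted p = 1.00). In the libraries with low Gapdh of batches 1 and 2, with batch as a term, it was -2.08 ± 0.32 (edgeR adjusted p = 0.00934), where 14 of 11004 genes (0.127%) were called. In GABAergic neurons of those libraries Grp was -2.29 and Vip 1.45 (edgeR adjusted p = 1.13e-08 and 5.07e-12), where 22 of 9454 genes (0.233%) were called. Vip in all neurons of those libraries was 1.37 ± 0.40 (edgeR adjusted p = 0.599). Prok2 differed by 0.18 ± 0.42 and Nms by 0.028 ± 0.48 in all neurons (edgeR adjusted p = 1.00 for both).

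The wider lists held no call either. Of 24 suprachiasmatic genes tested in all neurons none was called, 17 were higher in food-deprived mice, and their median log2 difference was 0.098 against -0.00016 over all 10923 genes. An edgeR unadjusted p under 0.05 was found for 2 of these 24, against 2.12% of all genes. In GABAergic neurons it was found for 3 of 22, against 1.82% of all genes, and their median was 0.24 against -0.0052. The 3 with the smallest unadjusted p in GABAergic neurons were Six6 at 0.70 ± 0.27, Sst, the gene of somatostatin, at 1.12 ± 0.48, and Calb1, a calcium-binding protein of the core, at 0.48 ± 0.21, all with an edgeR adjusted p of 1.00. Of 17 clock genes tested in all neurons 5 were higher, with a median of -0.11 and no call, and of 4 receptors 2 were higher, with no call. The members were too low in glutamatergic neurons to pass the filter there. Those neurons held 4 Vip, 25 Grp, 22 Prok2 and 44 Nms UMIs in all, so the fit of the difference in feeding effect between the 2 classes, with 0 of 10012 genes called (0%), says little of the members.

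**Figure D5:**
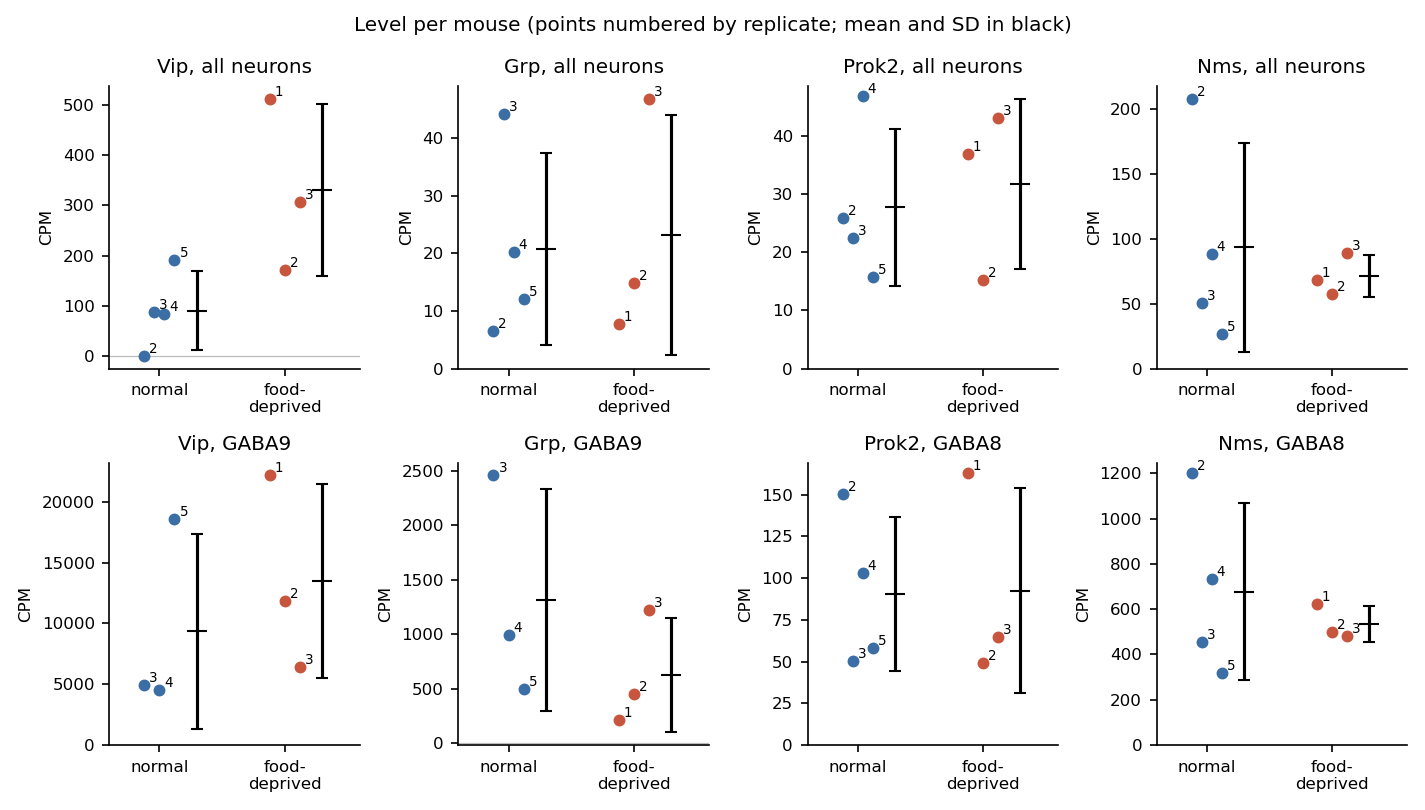
Level per mouse in CPM for the 4 genes in all neurons, Vip and Grp in GABA9, and Prok2 and Nms in GABA8. Points are mice, numbered by replicate, and black marks are the mean and SD of each group. The groups overlap in all 8 panels, and in GABA9 normal replicate 5 has a Vip level near that of food-deprived replicate 1.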

How the data were processed

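Drop-seq libraries of dissociated hypothalamus from 5 normal and 3 food-deprived mice were deposited by the authors as whole-number UMI counts per gene and cell, with a merged count table and a table of cluster names, per the file headers. Reads were placed on the build mm9, per the submitters' processing notes; the aligner is not given in the sources used here. Each annotated cell was matched to its library by barcode, batch and feeding state: all 14276 matched cells had equal counts in both tables, and 161 cells that matched no single library were left out. Counts were summed per mouse and cluster or class and tested in edgeR 4.0.16 (TMM, filterByExpr, quasi-likelihood F test, R 4.3.3) with a Benjamini-Hochberg threshold of 0.05, with a minimum per mouse of 20 cells for a class and 10 for a cluster. Levels used mice with at least 5 cells. Shares were tested by exact permutation over mice with at least 20 neurons. Alternatives were DESeq2 1.42.0, edgeR's RLE scaling, no filter, batch as a term, library kinds, thinning to 1000 UMIs and leaving out each mouse; leaving out each mouse from pooled levels of other genes was chosen after the data were seen. The edgeR script was tested on simulated data: 180 of 194 changed genes were recovered in all neurons with 4 false calls, and 153 of 177 in GABA8 with 4. The simulated mice shared a mean profile and a fixed spread, with no batches or library kinds. Promoter sequences are those of RefSeq, and those of 3 members are printed. Doublets were not called. The members and lists were chosen with earlier results of these data known. Named were the 4 members, the 3 highest or smallest-p genes of each list, and 5 genes of most alike pattern for each member; other genes named were chosen after their values were seen. P-values measure the spread between mice. Fits with batch as a term left too few mice to measure that spread for a gene alone, and their p-values rest mainly on the spread modelled over all genes.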

Additional observations from a re-analysis of the deposited data

Results flagged for a closer look

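Normal replicate 5 stood apart from the other 3 normal mice in the Vip level of GABA8, at 681 CPM against 0, 0 and 19.3 CPM, by Dixon's test of the gap to the nearest mouse. It was 1 of 19 groups of 4 normal mice examined over the 4 genes and the shares, and chance picks about 1 group in 20. Its 105 Vip UMIs came from 6 GABA8 cells, in which Avp was at 555 CPM. The same mouse had the highest Vip and the lowest Grp of the 3 normal mice in GABA9.

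Barcodes that carry no cluster name also held UMIs of the 4 genes, above the 3 that a count of 0 allows. Over all libraries there were 16 of Vip, 15 of Grp, 9 of Prok2 and 16 of Nms among 2005443 UMIs, or 7.98, 7.48, 4.49 and 7.98 CPM. Of the 16 Nms UMIs, 9 came from 1 library, and for the other genes no library gave more than 4. These barcodes entered no comparison.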

How the results depend on the processing

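No paired analysis was possible because mouse numbers name different mice in the 2 groups; batches 1 and 2, which hold a mouse of each group, were used through batch as a term. Of the alternatives to the values above, 365 counted as the same, 51 changed direction, 11 passed the threshold where the main value did not and 18 moved otherwise. The cause was not tested. The same means equal direction and call for a difference, within 1 SD for a level and within the binomial interval for a co-expression share. A level without 1 mouse cannot leave that SD. A share test without 1 mouse cannot pass the threshold. The 365 is therefore no measure of how firm the results are. Calls over all genes rose from 0 to 8 (batch as a term) and 14 (low-Gapdh libraries of batches 1 and 2) in all neurons, to 5 (no filter) and 22 (low-Gapdh libraries) in GABAergic neurons, to 4 (no filter), 22 (batch) and 2 (low-Gapdh libraries) in GABA8, to 7 (no filter) in GABA13 and to 5 (batch) in GABA9. Leaving out 1 mouse gave 0 to 17 in GABA9, 0 to 2 in GABA13 and 0 to 3 in the Glu minus GABA fit. Vip stayed higher in food-deprived mice without any 1 mouse, at 1.21 to 2.29 in all neurons and 1.35 to 2.34 in GABAergic neurons, as it did in GABA9, at 0.015 to 1.52.

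Small log2 differences changed sign. In all neurons DESeq2 gave 0.026 for Grp and -0.34 for Nms, batch as a term gave -0.36 for Prok2 and -0.074 for Nms, the high-Gapdh libraries gave -0.23 for Prok2 and the low-Gapdh libraries -0.58 for Nms. In GABAergic neurons the same settings gave 0.17 for Grp and -0.073 for Nms, -0.28 for Prok2 and -0.14 for Nms, -0.33 for Prok2, and -0.68 for Nms. High-Gapdh libraries gave -0.61 for Vip in GABA8, and batch gave -0.12 for Prok2 in GABA13. Without 1 mouse at a time the values ran from -1.13 to 0.48 for Grp, -0.090 to 0.65 for Prok2 and -0.34 to 0.40 for Nms in all neurons, and from -1.20 to 0.75, -0.047 to 0.74 and -0.29 to 0.37 in GABAergic neurons. In GABA8 they ran from -0.37 to 4.82 for Vip, -0.40 to 0.61 for Prok2 and -0.42 to 0.082 for Nms, and in GABA13 from -0.13 to 0.80 for Prok2. For the Glu minus GABA difference they ran from -2.99 to 1.98 for Vip, -1.29 to 3.63 for Grp and -1.13 to 0.15 for Prok2. The GABA8 share differed by 2.65 percentage points in GABA and Glu neurons of batches 1 to 4 and by -5.27 to 2.56 without 1 mouse, and the share with Nms by -0.97 after thinning and -1.36 to 1.84 without 1 mouse.

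The pooled Prok2 level of GABA10 was 588 CPM. The share of GABA8 Prok2 cells with Nms was 59.1% at 2 UMIs or more and 44.8% after thinning, and Vip was in 92.3 to 100% of GABA9 Nms cells without 1 mouse. GABA9 had 6 to 21 cells per mouse, which limits what its values can show.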
